A study of Mus musculus with 112 samples.

Results

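Skin carcinomas whose histology was labelled mixed were placed between carcinomas labelled spindle and carcinomas labelled squamous cell carcinoma (SCC). The mixed carcinomas were chosen by that label alone and number 3, from 3 mice, of 25 primary carcinomas on 112 arrays in the series. All tumours arose on the dorsal skin of male FVBBX mice, bred by crossing hybrids of Mus spretus and FVB back to FVB. Each mouse received the carcinogen DMBA once, at 8 weeks of age, and then repeated doses of the tumour promoter TPA, and primary tumours were resected once they had passed 1 cm. The mixed carcinomas came from 2 mice labelled HrasKO (1616 and 1706) and 1 wild-type (WT) mouse (1949). The 12 spindle carcinomas came from 10 mice, of which 6 were WT and 4 HrasKO, and the 10 SCC came from 8 mice, all WT. HrasKO is the label's name for the deletion of Hras, the gene that DMBA most often mutates in this model. Hras itself was not analysed here, so the knockout could not be checked. Because every SCC mouse was WT, genotype and histology cannot be told apart in the comparison with SCC. Expression is given as the deposited log2 level of a gene (log2 RMA intensity), on which a difference of 1 is a doubling of signal.

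In this model a squamous carcinoma keeps the cell junctions and keratins of epidermis, whereas a spindle carcinoma has lost them and resembles mesenchymal tissue. The shift between these states is an epithelial-mesenchymal transition (EMT). Transcription factors such as Zeb1 and Snai1 repress junction genes by binding E-box sequences near their start sites, and the miR-200 family in turn represses Zeb1 and Zeb2. Bulk tumour RNA mixes carcinoma cells with stroma, so that fewer cells of a type and less RNA per cell cannot be told apart in any value given here.

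The mature microRNAs of this circuit are shown because their precursors had probe sets on the array, of which those of miR-200b and miR-205 differed most between the mixed tumours. The sequences are from RefSeq on GRCm38.p6, all on the minus strand, with the seed (bases 2 to 8) in capitals. miR-200a-3p lies at chr4:156054911-156054932, miR-141-3p at chr6:124717917-124717938, miR-200b-3p at chr4:156055685-156055706, miR-200c-3p at chr6:124718324-124718346 and miR-205-5p at chr1:193507503-193507524. The first pair shares 1 seed, the second pair shares another that differs from it by 1 base, and miR-205-5p, a keratinocyte microRNA, has a seed of its own.
miR-200a-3p: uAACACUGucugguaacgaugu
miR-141-3p: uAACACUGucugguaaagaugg
miR-200b-3p: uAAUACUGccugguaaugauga
miR-200c-3p: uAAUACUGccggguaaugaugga
miR-205-5p: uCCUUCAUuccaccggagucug

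The promoters of Epcam, an epithelial adhesion molecule, and Rab25, a GTPase of epithelial membrane recycling, are shown as examples with an E-box. Both genes separated the mixed tumours widely, and other genes with an E-box, such as Krt5, separated them more. Each run is the 250 bases before the gene's start in RefSeq (GRCm38.p6), written 5′ to 3′ on the gene's strand. Capitals mark the E-box CAGGTG or, on the other strand, CACCTG. Epcam lies on the plus strand (chr17:87635729-87635978) with motifs starting 187 and 19 bases before the gene start, and Rab25 on the minus strand (chr3:88548280-88548529) with motifs 64 and 53 bases before it.
Epcam: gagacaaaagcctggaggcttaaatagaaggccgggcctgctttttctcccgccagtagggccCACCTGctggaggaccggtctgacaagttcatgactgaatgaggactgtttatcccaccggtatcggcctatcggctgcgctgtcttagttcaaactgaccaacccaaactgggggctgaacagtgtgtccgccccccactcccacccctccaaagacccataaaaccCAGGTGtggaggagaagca
Rab25: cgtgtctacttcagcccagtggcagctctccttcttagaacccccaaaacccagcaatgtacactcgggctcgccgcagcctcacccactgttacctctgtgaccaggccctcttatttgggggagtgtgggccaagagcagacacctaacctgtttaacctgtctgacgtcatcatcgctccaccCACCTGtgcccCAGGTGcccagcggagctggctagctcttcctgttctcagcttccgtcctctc
Either form of the motif was present in the same window of 7 of 12 epithelial junction genes and 6 of 11 epithelial identity regulators with a promoter in the table. It was present in 19.4% of all promoters (5252 of 27025), in 0 of 11 mesenchymal cell genes and in 0 of 11 matrix genes. Lists of other cells also held it often, with 3 of 4 B cell markers and 3 of 5 T cell markers. These counts describe letters in a window and not binding.

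The labels were checked first against the epithelial and mesenchymal genes. The carcinoma of mouse 1949 that was titled RegCA and labelled spindle carried the levels of an SCC, with Cdh1 (E-cadherin) at 11.08, against 6.01 to 8.91 in the other 11 spindle arrays and 10.21 to 11.46 in the SCC arrays. Both SCC arrays of the same mouse held the highest levels of Pdgfra, the PDGF receptor of fibroblasts, among SCC, with 10.997 and 11.03 beside a median of 9.72 over the 10 SCC arrays. Their mean level over mesenchymal cell genes, 9.97 and 9.77, was below the highest SCC array, which had 10.22. The SCC array of mouse 1508 also stood apart, with 2855 genes above and 3566 genes below every other carcinoma array. The labels were kept, ranges of spindle carcinomas are given without the array of mouse 1949 where stated, and the counts of genes are given with and without these arrays.

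To place each tumour, 1676 genes were taken that differed between spindle carcinoma and SCC by at least 1 on the log2 scale (adjusted p below 0.05) in a fit without the mixed arrays. For each gene the position of a tumour was its distance from the SCC mean divided by the distance between the spindle mean and the SCC mean. A position of 0 is therefore the SCC mean and 1 is the spindle mean, and the median over genes is the tumour's position. The spindle and SCC arrays chose these genes and entered the means, whereas the mixed arrays did neither. The gap between the spindle and SCC ranges is thus partly built in, and mixed tumours are not placed on equal terms with them. The mixed tumours lay at 1.10 (mouse 1616), 0.54 (mouse 1706) and 0.96 (mouse 1949), against 1.01 to 1.24 in the 11 spindle arrays and -0.30 to 0.22 in the 8 SCC arrays of mice other than 1949. Thus the mixed tumour of mouse 1616 lay within this spindle range and that of mouse 1949 just below it. That of mouse 1706 lay between both groups when the SCC and spindle arrays of mouse 1949 were set aside. In mouse 1949 the array labelled spindle lay at -0.07, and the SCC arrays at 0.33 and 0.60. Over all 10 SCC arrays the range was -0.30 to 0.60, and the mixed tumour of mouse 1706 lay inside it.

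The position of the tumour of mouse 1706 differed between both directions of the axis. Over the 745 genes that were higher in spindle carcinoma it lay at 0.70, and over the 931 genes that were lower in spindle carcinoma it lay at 0.38. Accordingly 76.8% of the higher genes and 35.7% of the lower genes were nearer to the spindle mean in this tumour. On the linear intensity scale this order turned round, with 0.46 over the higher and 0.68 over the lower genes, so that the order depends on the scale. In mouse 1616 the mixed tumour lay at 0.98 over the higher and 1.16 over the lower genes, and that of mouse 1949 at 1.07 and 0.88.

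**Figure D1:**
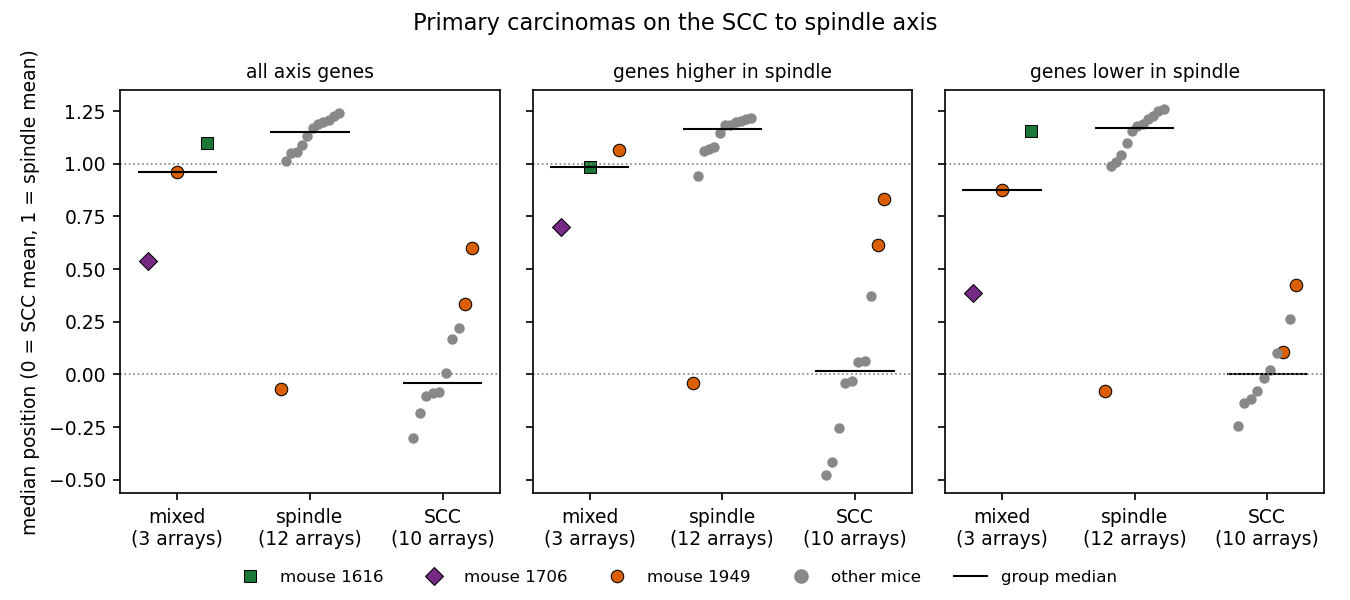
Position of each carcinoma array between the SCC mean (0) and the spindle mean (1), as the median over all 1676 axis genes, the 745 genes higher in spindle and the 931 genes lower in spindle. Points are arrays in the columns mixed, spindle and SCC, lines are group medians and colours mark mice 1616, 1706 and 1949. Over all axis genes the mixed tumours sit at 1.10, 0.54 and 0.96, and the spindle array of mouse 1949 sits among the SCC arrays at -0.07.

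Whole profiles were compared as well. By Pearson correlation across 18772 genes, which are not independent replicates, the nearest other carcinoma to the mixed tumour of mouse 1616 was a spindle carcinoma of mouse 1664 (r = 0.974). The nearest to that of mouse 1706 was an SCC of mouse 2022 (r = 0.974), and the nearest to that of mouse 1949 was a spindle carcinoma of mouse 1383 (r = 0.981). The mixed tumours correlated with each other at 0.947 to 0.968, and pairs of spindle arrays at 0.879 to 0.983 with a median of 0.963.

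Expression was then compared between the groups, with the mouse as the replicate. Of 18772 genes, 72 rose and 21 fell in mixed carcinomas relative to SCC (0.495% called in either direction), and 3890 had an unadjusted p below 0.05. No gene was called between mixed and spindle carcinomas or between mixed carcinomas and the midpoint of the other groups (0.0% each by limma, with 451 and 873 genes at an unadjusted p below 0.05). Spindle carcinomas differed from SCC in 24.1% of genes (4527). Of the mice, 5 carried both of these histologies, and with mouse as a fixed block that count was 0. The axis and the programme counts below use the contrast with mouse as a random block. A missing call does not show that mixed and spindle carcinomas were alike. The 93 calls against SCC rest on single tumours and on labels. They dropped to 0 without the mixed tumour of mouse 1616, without that of mouse 1949, without the SCC of mouse 1508, with genotype in the model, in batch 1 alone and when arrays were fitted one by one. They grew to 454 without the mixed tumour of mouse 1706, to 1667 without the spindle array of mouse 1949 and to 2319 without all its spindle and SCC arrays. The removals of SCC or spindle arrays of mice 1508 and 1949 were chosen after the data had been seen.

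Of the 72 genes that rose none belonged to a programme list, and the largest rises are named here. Mgp, a matrix protein that inhibits calcification, had levels of 11.43, 10.20 and 11.22 in the mixed tumours of mice 1616, 1706 and 1949. In SCC it had a lowest, median and highest level of 5.26, 7.67 and 11.08, and it rose by 3.43 (SE 0.76, adjusted p = 0.0497). Of the mixed tumours that of mouse 1706 overlapped the SCC range, whose top was an SCC of mouse 1949. Adamts14, a procollagen protease, had 9.96, 9.40 and 9.11 in the mixed tumours and at most 8.49 in SCC, and rose by 2.74 (SE 0.48, adjusted p = 0.0276). Vcan, the matrix proteoglycan versican, had 11.51, 11.10 and 11.66 in the mixed tumours and at most 11.03 in SCC, and rose by 2.45 (SE 0.53). Neither Adamts14 nor Vcan overlapped between mixed carcinomas and SCC. Ncam1, a neural cell adhesion molecule, rose by 2.42 (SE 0.54), the adhesion receptor Adgrg6 by 2.62 (SE 0.49) and the protocadherin Pcdh19 by 2.34 (SE 0.51). Dennd2a and Plekhh2 rose by 2.80 (SE 0.57) and 2.53 (SE 0.52). All 3 mixed arrays lay above every SCC array for 422 genes (2.25%) and below every SCC array for 225 (1.2%). They lay above every spindle array for 14 genes (0.0746%) and below every spindle array for 7 (0.0373%). The gene that lay above every other carcinoma array in all 3 was Lect2 (0.00533% of genes), a secreted leukocyte chemotactic factor, at low levels with a mean of 4.10 in mixed carcinomas, 3.62 in spindle carcinomas and 3.51 in SCC.

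Of the 21 genes that fell, 1 (Defb4) belonged to a programme list. Defb4, a beta-defensin of hyperplastic epidermis, had 3.74, 6.06 and 5.78 in the mixed tumours, and 4.80, 9.98 and 11.72 as the lowest, median and highest level in SCC. Its difference was -4.38 (SE 0.97, adjusted p = 0.0497). The receptor Fgfr3, which is expressed in keratinocytes, had 5.72, 6.46 and 6.21 in the mixed tumours and at least 6.60 in SCC, and its difference was -2.41 (SE 0.53, adjusted p = 0.0488). The groups did not overlap for Fgfr3, and for Defb4 they did. The difference was -3.58 (SE 0.65) for the carboxylesterase Ces2f, -3.45 (SE 0.66) for the steroid reductase Akr1d1 and -3.26 (SE 0.71) for the phosphatase Acp7, which all fell. The nucleoside transporter Slc28a3, the bile acid family transporter Slc10a6 and the immunoglobulin-domain protein Tmigd1 fell as well, with differences of -3.04 (SE 0.68), -2.85 (SE 0.62) and -2.80 (SE 0.54). Slc10a6 had 4.85, 6.06 and 6.17 in the mixed tumours and 4.81 to 8.31 in spindle carcinomas other than that of mouse 1949, and all 3 mixed tumours lay below the lowest SCC level of 6.42.

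The epithelial and mesenchymal programmes were described through 9 gene lists with 140 measured members, of which 1 (Defb4) fell against SCC and 0 rose, beside falls in 0.112% and rises in 0.384% of all genes. Between spindle carcinoma and SCC, 17 members were higher and 81 lower in spindle, beside 14.6% and 9.48% of all genes. The median difference of mixed carcinomas from SCC was -2.23 over epithelial junctions, -2.67 over identity regulators, -1.80 over basal keratins and hemidesmosomes, -2.89 over cornified differentiation and -3.05 over hyperplastic epidermis. Over EMT transcription factors it was 1.28, over mesenchymal cell genes 0.69 and over matrix genes 0.68, and over all genes 0.02. These medians average over tumours that differed, and the programmes are therefore given tumour by tumour.

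**Figure D2:**
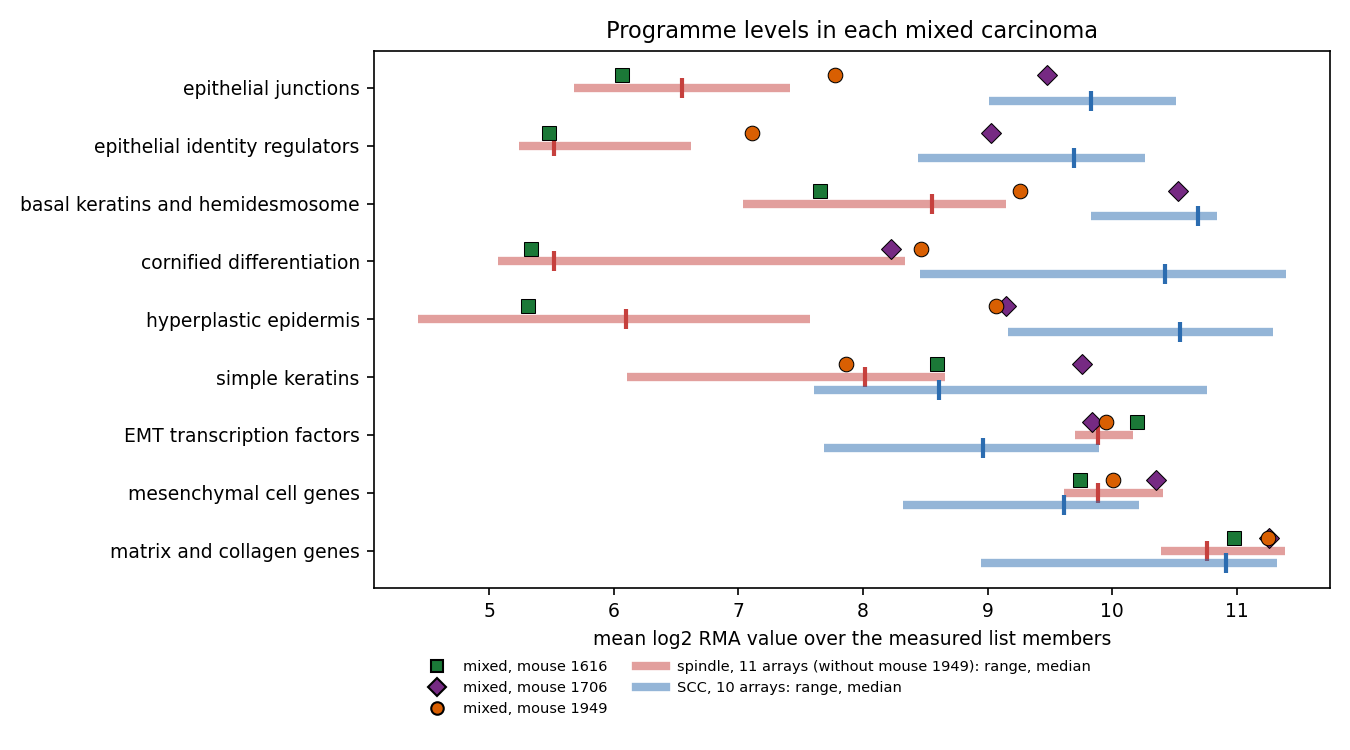
Mean log2 level of the members of 9 programme lists in the mixed tumours of mice 1616, 1706 and 1949 (points), with bars for the lowest to highest and ticks for the median of 11 spindle arrays without mouse 1949 and 10 SCC arrays. For epithelial junctions the mixed tumours have 6.06, 9.48 and 7.77, which lie within the spindle range, within the SCC range and between them.

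The junction programme holds the cadherins, desmosomal proteins, claudins and connexins that join keratinocytes. Its mean level was 6.06, 9.48 and 7.77 in the mixed tumours of mice 1616, 1706 and 1949, against 5.68 to 7.41 in spindle carcinomas without mouse 1949 and 9.01 to 10.51 in SCC. Over the 23 members that differed by at least 1 between spindle carcinoma and SCC, the tumour of mouse 1616 was nearer to spindle in 22, that of mouse 1706 in 0 and that of mouse 1949 in 20. In mouse 1616 Jup (plakoglobin) stood at 11.12 and Perp, a desmosomal tetraspan protein, at 10.19, both within the spindle range. Cdh1 had 8.66, 10.72 and 8.83 in the mixed tumours, with a lowest, median and highest of 6.01, 7.94 and 8.91 in spindle carcinomas without mouse 1949 and of 10.21, 10.93 and 11.46 in SCC. Cdh1 was at the upper end of the spindle range in mice 1616 and 1949. The desmosomal cadherin Dsg3 showed a wider split, with 3.91, 11.33 and 8.81 in the mixed tumours, 3.64, 4.26 and 8.20 in spindle carcinomas without mouse 1949 and 10.51, 11.56 and 12.10 in SCC. Epcam, whose promoter is shown above, had 4.38, 9.66 and 6.84, with a spindle median of 5.60 and an SCC median of 9.45. None of these members passed the test against SCC, the difference being -1.48 (SE 0.69) for Cdh1, -3.49 (SE 1.44) for Dsg3 and -2.10 (SE 0.92) for Epcam. In the tumour of mouse 1949 the desmosomal genes were not equally low. Dsc3, a desmocollin of basal layers, stood at 9.68 and Gjb2, a connexin, at 10.47, both above every spindle carcinoma other than that of mouse 1949, whereas Dsc2 at 6.48 and Cldn4 at 6.72 were within that range.

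The regulators of epithelial identity divided the tumours in the same way. They include the splicing factors Esrp1 and Esrp2, the Grhl factors and p63 (Trp63), the master regulator of stratified epithelium. Their mean level was 5.48, 9.02 and 7.11 in the mixed tumours, against 5.23 to 6.62 in spindle carcinomas without mouse 1949 and 8.44 to 10.26 in SCC, so that only the tumour of mouse 1949 lay outside both ranges. Esrp1 had 4.30, 10.38 and 8.03, with 4.03, 4.73 and 7.15 as the lowest, median and highest level in those spindle carcinomas and 9.80, 10.67 and 11.30 in SCC. Trp63 had 4.85, 10.22 and 8.27, with 5.12, 5.89 and 7.42 in those spindle carcinomas and 9.42, 10.44 and 11.02 in SCC. Rab25 had 5.26, 10.66 and 8.91, with 5.26, 5.64 and 8.12 in those spindle carcinomas and 10.34, 11.40 and 12.11 in SCC. For each of these 3 genes the tumour of mouse 1949 lay in the gap between the groups. In the same tumour 8 of 21 identity regulators lay within the spindle range without mouse 1949. Among these 8 were the epithelial Ets factors Elf3 at 4.39 and Ehf at 7.68, with highest spindle levels of 5.69 and 7.69.

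Basal keratins and hemidesmosome genes, which mark the layer on the basement membrane, had a mean level of 7.65, 10.53 and 9.26 in the mixed tumours. Spindle carcinomas without mouse 1949 ranged from 7.03 to 9.15 and SCC from 9.83 to 10.84. Krt14 had 5.29, 12.48 and 11.69 in the mixed tumours, with 5.88, 8.60 and 11.05 as the lowest, median and highest level in those spindle carcinomas and 12.32, 12.61 and 12.89 in SCC. Krt14 in mouse 1616 was below every spindle and SCC array. Krt5, its partner in basal filaments, had 5.47, 12.42 and 10.97, and the hemidesmosomal collagen Col17a1 had 5.70, 10.38 and 7.86. Against the direction of the other basal genes, Krt15 stood at 7.74 in mouse 1616, above the spindle range without mouse 1949 (3.22 to 6.47), and at 5.59 in mouse 1706, below every SCC array.

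**Figure D3:**
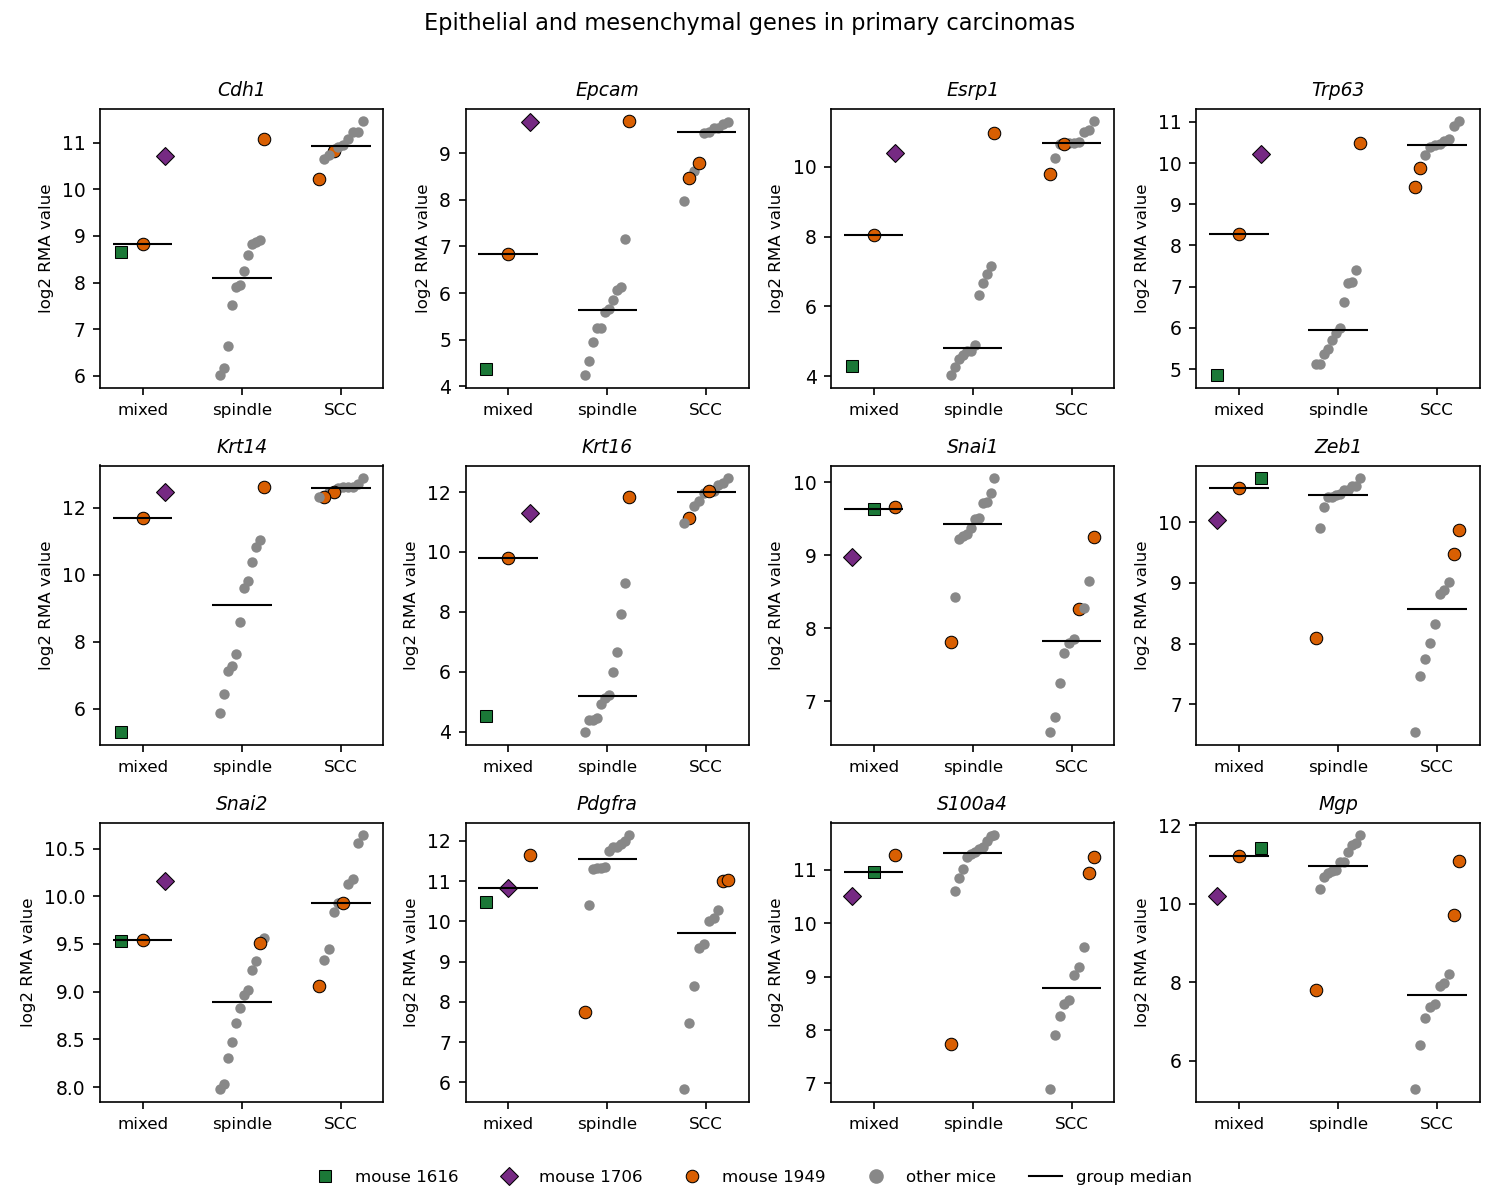
Log2 level of 12 genes per carcinoma array in the columns mixed, spindle and SCC, with mice 1616, 1706 and 1949 coloured and group medians as lines. Cdh1, Epcam, Esrp1, Trp63, Krt14 and Krt16 separate the mixed tumours from each other, while Zeb1 places all 3 above every SCC array. For Snai1, Pdgfra, S100a4 and Mgp the tumour of mouse 1706 lies inside the SCC range, whose top is an array of mouse 1949. That of mouse 1616 does so for Pdgfra and S100a4. For Snai2 all 3 lie inside the SCC range.

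Differentiation genes did not follow the basal genes in mouse 1949. The hyperplastic programme, the keratins, small proline-rich and antimicrobial proteins that TPA-treated and wounded epidermis switches on, also holds S100a8 and S100a9, which are neutrophil markers too. It had a mean level of 5.31, 9.14 and 9.07 in the mixed tumours, against 4.43 to 7.57 in spindle carcinomas without mouse 1949 and 9.16 to 11.29 in SCC. In mouse 1949 the tumour was nearer to SCC in 11 of 14 of these genes, although it was nearer to spindle in 19 of 19 identity regulators. Of the 14 genes, 7 nevertheless lay below every SCC array in this tumour, 6 lay within the SCC range and 1 above it. The mean of neutrophil markers was 7.92, 9.43 and 9.96 in the mixed tumours, and its part in this programme was not tested. Krt16 had 4.51, 11.31 and 9.78, with a highest spindle level of 8.95 without mouse 1949 and a lowest SCC level of 10.96. The beta-defensin Defb3 was higher in mouse 1949 than in mouse 1706, with 4.31, 6.96 and 10.01, at most 6.30 in spindle carcinomas and an SCC median of 9.49. Krt13, a keratin of internal epithelia that appears in progressing skin tumours, had 6.22, 6.90 and 4.39, below every SCC array (at least 7.55) in all 3 mixed tumours.

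Cornified differentiation, the terminal programme of the outer epidermis, had a mean level of 5.34, 8.22 and 8.47 in the mixed tumours, with 5.07 to 8.34 in spindle carcinomas without mouse 1949 and 8.46 to 11.40 in SCC. Its members split the tumours of mice 1706 and 1949. Krt1, the early suprabasal keratin, had 4.47, 4.22 and 10.38, where SCC ranged from 5.53 to 12.44. Sprr3 ran the other way, with 4.07, 10.004 and 4.05, a spindle median of 4.11 and an SCC median of 11.85. Involucrin (Ivl) had 7.13, 10.06 and 7.41, and loricrin (Lor) had 5.99, 5.25 and 7.27 against an SCC median of 11.06. Hence the tumour of mouse 1706 held Krt5, Krt14, involucrin and Sprr3 within the SCC ranges, with Krt1 and loricrin below every SCC array. Neither the hyperplastic nor the cornified list had a further member past the test.

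The EMT transcription factors were high in all 3 mixed tumours. Their mean level was 10.20, 9.84 and 9.95, against 9.70 to 10.17 in spindle carcinomas without mouse 1949 and 7.68 to 9.89 in SCC, whose top was an array of mouse 1949, and 7 of 8 members that separate the groups were nearer to spindle in each tumour. Zeb1 had 10.72, 10.03 and 10.56 in the mixed tumours, with 9.90, 10.46 and 10.72 as the lowest, median and highest level in spindle carcinomas without mouse 1949 and 6.54, 8.57 and 9.88 in SCC. No mixed tumour overlapped SCC, but the difference of 2.15 (SE 0.51) missed the threshold with an adjusted p of 0.0545. Snai1 had 9.63, 8.97 and 9.66, with an SCC range of 6.57 to 9.24, and differed by 1.68 (SE 0.38, adjusted p = 0.0534). Without the spindle array of mouse 1949, which enters the pooled spread, both passed with an adjusted p of 0.00409. Over all alternatives the adjusted p ran from 0.000406 to 1 for Zeb1 and from 0.000544 to 1 for Snai1. Snai2 (Slug), which epidermis also expresses, ran against the list. It had 9.53, 10.16 and 9.54 in the mixed tumours, with a median of 8.83 in spindle carcinomas without mouse 1949 and of 9.93 in SCC, and its difference between spindle carcinoma and SCC was -1.10 (SE 0.23, adjusted p = 0.0020). Of the 140 measured programme members, 4 lay above every SCC array in all 3 mixed tumours and 7 lay below, beside 2.25% and 1.2% of all genes. The 4 were the EMT factors Zeb1 and Prrx1, fibronectin (Fn1) and its receptor subunit Itga5.

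Genes of mesenchymal cells had a mean level of 9.74, 10.36 and 10.0035 in the mixed tumours, with 9.61 to 10.40 in spindle carcinomas without mouse 1949 and 8.32 to 10.22 in SCC. S100a4, a calcium-binding protein of motile and stromal cells, had 10.96, 10.51 and 11.28, with a lowest level of 10.60 in those spindle carcinomas and a median of 8.80 in SCC. Pdgfra had 10.49, 10.84 and 11.64, with a spindle median of 11.76 and an SCC median of 9.72. The differences from SCC, 2.15 (SE 0.71) for S100a4 and 1.90 (SE 0.87) for Pdgfra, did not pass the test. The hyaluronan receptor Cd44, lower in spindle carcinoma than in SCC in these data, had 9.15, 11.53 and 10.20, in the order of the epithelial genes. Contractile genes were lowest in mouse 1616, where smooth muscle actin (Acta2) stood at 9.95, against 12.01 in mouse 1706 and 11.81 in mouse 1949. Matrix and collagen genes did not separate the groups, with 1 member higher and 1 lower of 19 between spindle carcinoma and SCC. Their mean level of 10.98, 11.26 and 11.25 in the mixed tumours lay inside both ranges, 10.39 to 11.39 in spindle carcinomas without mouse 1949 and 8.95 to 11.33 in SCC. Col1a1 had 11.70, 12.18 and 12.14, with medians of 11.57 and 11.84 in those spindle carcinomas and in SCC.

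The programme positions differed from tumour to tumour. In mouse 1616 the 5 epithelial lists that separate the groups lay at 1.14 to 1.42, EMT factors at 1.15 and mesenchymal genes at 1.02. The spindle mean includes the array of mouse 1949, and over the 5 lists the medians of the other spindle arrays were 0.99 to 1.27. Without that array the lists of mouse 1616 lay at 1.08 to 1.28. In mouse 1706 junctions, identity regulators, basal and hyperplastic genes lay at 0.03 to 0.17 and cornified genes at 0.41, whereas EMT factors lay at 0.84 and mesenchymal genes at 0.76. The mesenchymal position rests on the 5 of 19 members that differed by at least 1 between the groups, of which 3 were nearer to spindle and 2 nearer to SCC in mouse 1706. This split was not particular to the mixed tumour. The SCC arrays of mouse 1949 had junctions at 0.03 and 0.27, EMT factors at 0.66 and 0.95 and mesenchymal genes at 0.94 and 0.84. In mouse 1949 junctions, identity and basal genes lay at 0.75 to 0.85 and EMT factors and mesenchymal genes at 1.05 and 1.08, whereas cornified and hyperplastic genes lay at 0.43 and 0.30. Spindle carcinomas without mouse 1949 went down to 0.47 for cornified genes, in mouse 2022 with junctions at 0.96, and to 0.69 for hyperplastic genes. Simple keratins, which skin tumours gain, rested on 2 members and turned round with 1 array. Their position in mouse 1706 was -0.75, and 0.81 without the spindle array of mouse 1949. Krt8 itself was similar in all 3, with 12.40, 12.35 and 12.21, a median of 12.35 in spindle carcinomas without mouse 1949 and of 10.74 in SCC.

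The miR-200 family connects both programmes. Its probe sets measure the hairpin region of the transcript and not the mature microRNA, and they were chosen after their values had been seen. Mir200b had 4.39, 7.42 and 5.15 in the mixed tumours, with 4.40, 4.56 and 4.83 as the lowest, median and highest level in spindle carcinomas without mouse 1949 and 4.94, 7.10 and 8.56 in SCC. In mouse 1706 this was above the SCC median, and in mouse 1949 just above the spindle range and near the lowest SCC array, that of mouse 1508. Mir200a had 4.89, 6.12 and 4.68, and Mir205 had 3.93, 6.68 and 5.01, with an SCC median of 7.24 for Mir205. The hairpins of the other cluster differed less. Mir200c had 4.62, 5.06 and 4.70, with at most 4.84 in spindle carcinomas without mouse 1949 and 4.57 to 7.09 in SCC. Mir141 had 3.94, 4.52 and 4.09, with at most 4.30 in those spindle carcinomas and 4.08 to 5.32 in SCC. For both, the tumour of mouse 1706 lay above those spindle carcinomas and below the SCC medians of 5.82 and 4.72. Mouse 1706 combined a Mir200b level of 7.42 with a Zeb1 level of 10.03, which is just above every SCC array (at most 9.88). This pairing was not particular to the mixed tumour. The SCC arrays of mouse 1949 had Mir200b at 6.49 and 6.02 with Zeb1 at 9.48 and 9.88. None of these differences from SCC passed the test, that of Mir200b being -1.42 (SE 0.76).

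**Figure D4:**
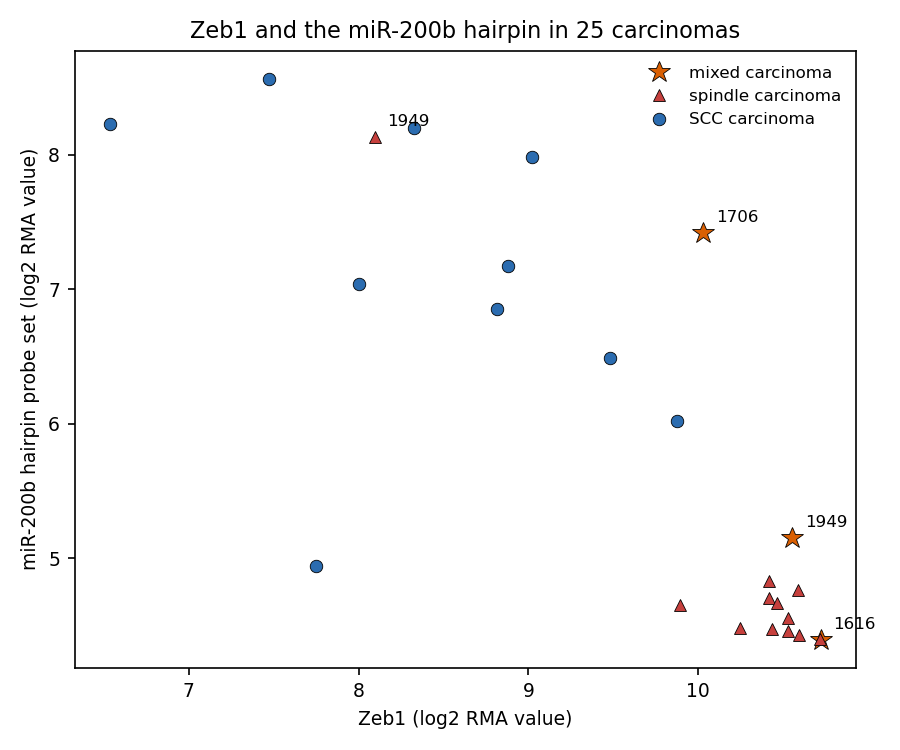
Log2 level of Zeb1 (x axis) and of the Mir200b hairpin probe set (y axis) in 25 carcinoma arrays, coloured by group, with the mixed tumours named by mouse. Zeb1 and Mir200b lie at 10.03 and 7.42 in the mixed tumour of mouse 1706, at 10.72 and 4.39 in that of mouse 1616, at 10.56 and 5.15 in that of mouse 1949 and at 8.10 and 8.13 in the spindle array of mouse 1949.

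Markers of other cells and pathways also differed between the mixed tumours, and their part in the results above was not tested. Sebocyte markers had a mean level of 5.40, 5.41 and 8.25, with up to 7.64 in spindle carcinomas and 5.38 to 6.997 in SCC of mice other than 1949. The SCC arrays of mouse 1949 had 6.81 and 8.96. The wax synthase Awat1 stood at 9.00 in the mixed tumour of mouse 1949 and at 6.68 and 10.02 in its SCC arrays. Mast cell markers had 6.23, 7.17 and 8.60, with 5.69 to 9.68 in spindle carcinomas without mouse 1949. They had 4.61 to 6.58 in SCC of mice other than 1949, and 8.73 and 8.37 in the SCC arrays of mouse 1949. Neutrophil markers were lower in mouse 1616, with 7.92, 9.43 and 9.96, in spindle ranges of 5.82 to 10.14 without mouse 1949 and SCC ranges of 8.50 to 10.18. Macrophage markers had 10.58, 10.11 and 10.08, with 9.82 to 10.93 in those spindle carcinomas and 7.59 to 10.56 in SCC. Skeletal muscle markers had 6.96, 5.78 and 4.75, with 4.61 to 7.99 in those spindle carcinomas and 4.68 to 7.54 in SCC. Fibroblast markers had 8.31, 8.59 and 9.33, with 8.05 to 9.44 in those spindle carcinomas and at most 8.92 in SCC. In mouse 1949, 4 of 10 members lay above every SCC array and 6 within the SCC range. Among the 4 was Dlk1, at 10.63 against at most 6.68 in SCC, which weighs on the mean. T cell markers were highest in mouse 1616, with 6.38, 5.50 and 5.55 where spindle carcinomas without mouse 1949 reached 7.26 and SCC 6.26. B cell markers were low in all 3, with 5.07, 5.39 and 5.59.

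Among pathways, transcripts induced by Ras and MAP kinase had a mean level of 10.22, 9.84 and 9.33 in the mixed tumours, with 8.66 to 9.99 in spindle carcinomas and 8.95 to 9.54 in SCC. Both HrasKO tumours were above every SCC array, all of which were WT, and the WT tumour of mouse 1949 was within the SCC range. Among spindle carcinomas the HrasKO arrays had 1 level of 8.66 and others of 9.85 to 9.92, and the WT arrays had 9.19 to 9.99, so that the genotypes overlapped. Of 17 members none passed the test, and the largest differences from SCC were 2.23 (SE 0.56) for the Ets factor Etv1 and 1.59 (SE 0.50) for the feedback inhibitor Spry4. Of the EGF receptor ligands, Ereg had 10.36, 10.46 and 8.90, with at most 10.07 in SCC. Hbegf had 10.84, 10.64 and 8.96, of which the first 2 lay inside the SCC range of 9.67 to 11.51. Matrix proteases had 9.95, 9.97 and 9.47, the first 2 above every spindle and SCC array (at most 9.77 and 9.79). Of Notch pathway genes, which drive keratinocyte differentiation, the mean level was 8.20, 9.12 and 7.98, with 7.46 to 8.15 in spindle carcinomas without mouse 1949 and 8.38 to 9.49 in SCC. Cell cycle genes did not separate any tumour, with 9.70, 10.04 and 10.09 inside both ranges.

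The mice that carried a mixed carcinoma also supplied other tumours. In mouse 1949 the mixed tumour at 0.96 lay beyond the 2 SCC arrays at 0.33 and 0.60, and over genes higher in spindle they stood at 1.07, 0.62 and 0.83. Its 4 metastases labelled spindle lay at 1.07 to 1.23, its lung metastasis labelled SCC at 1.14 and its 3 papillomas at -0.12 to 0.15. In mouse 1706 the papillomas lay at 0.17 and -0.15 and 3 lymph node metastases labelled SCC at 0.80 to 0.96. Over genes higher in spindle these metastases stood at 0.33, 0.89 and 0.16, and their B cell marker levels were 10.41, 6.27 and 9.95, so that the second had the highest position and the lowest B cell level. In mouse 1616 a lymph node metastasis labelled SCC lay at 0.49 and a lung metastasis labelled SCC at 0.92, with B cell marker levels of 5.29 and 10.88. The part of lymphoid and lung tissue in these positions was not tested. Dorsal skin of the 3 mice lay at 0.22, 0.65 and 0.14.

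**Figure D5:**
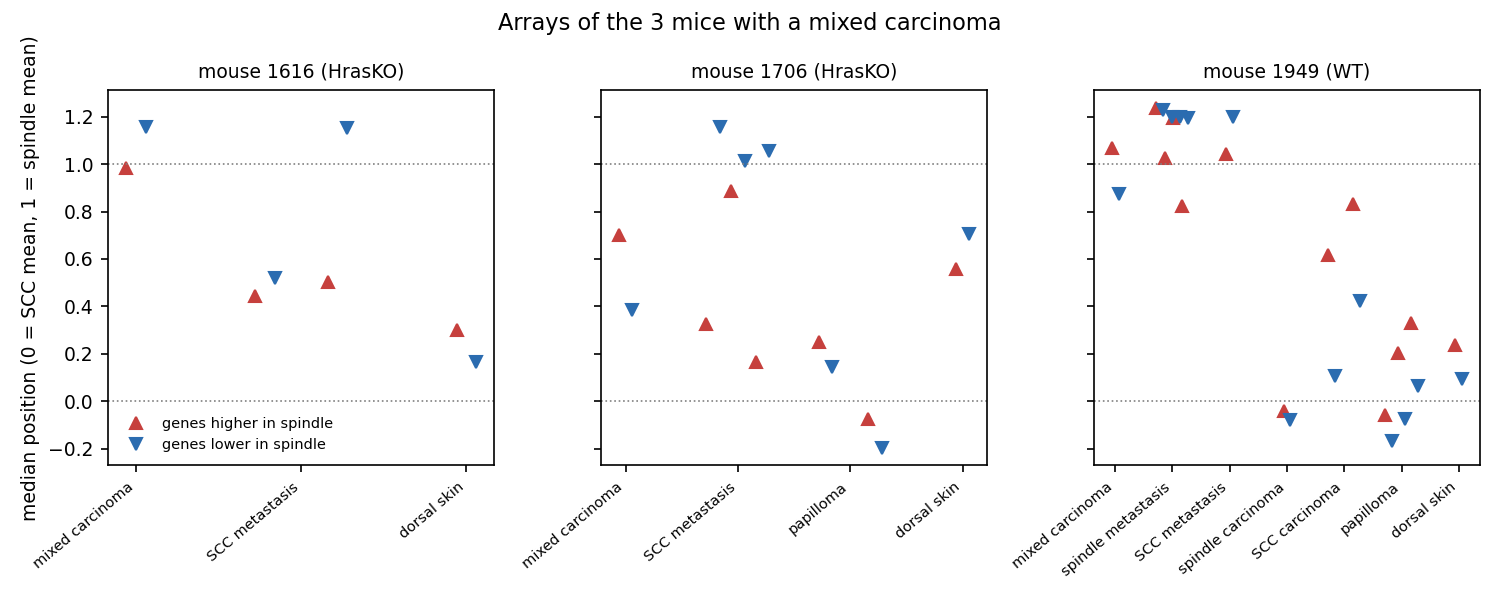
Position between the SCC mean (0) and the spindle mean (1) of every array of mice 1616, 1706 and 1949, over genes higher in spindle and genes lower in spindle. In mouse 1706 the mixed tumour sits at 0.70 and 0.38, and in mouse 1949 the mixed tumour sits at 1.07 and 0.88 with the array labelled spindle near 0.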

How the data were processed

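RNA of 25 primary carcinomas was hybridised to Affymetrix arrays, and the authors deposited log2 RMA values, per the submitters' processing notes, with the RMA version and any batch correction not given in the sources used here. Probe sets with 1 gene symbol in GEO's platform annotation (21141 of 28204) were reduced to 18772 genes by the highest mean. No array was removed. Values were averaged per mouse and histology (3 mixed, 10 spindle and 8 SCC means) and fitted with limma 3.58.1 in R 4.3.3. Mouse was a random block (duplicateCorrelation). The correlation between tumours of the same animal was estimated at -0.069, so that they were treated as almost unpaired. The Benjamini-Hochberg threshold was 0.05, and all 3 histologies shared 1 spread. Depth does not apply to arrays, and 3 mixed tumours limit the precision. P-values describe the spread between mice. Named genes were the 8 largest rises and 8 largest falls past the threshold, whose higher group averaged 6 or more, list members, and the microRNA hairpins. The members, lists and tests were chosen with earlier results of these data known. Alternatives changed the block, covariates, batches, filters, probe sets, normalization and arrays. Scripts were tested on simulated data.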

Additional observations from a re-analysis of the deposited data

Results flagged for a closer look

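Among the groups of 8 SCC and 10 spindle mice, a single mouse stood far from the rest in 47 of 168 tests of one value in one group, where chance gives about 1 in 20. Most were mouse 1949 among spindle mice, the array whose epithelial and mesenchymal genes go against its label. Its position was -0.0667, and the other 9 mice lay at 1.01 to 1.23. It was the highest spindle mouse for epithelial junctions (10.28), identity regulators (10.04) and Notch pathway genes (9.44), and the lowest for EMT transcription factors (8.54), mesenchymal cell genes (9.20), TGF-beta pathway genes (9.07), macrophage markers (8.60) and mast cell markers (4.87). It was highest for Defb4 (6.66), Ces2f (8.20), Slc28a3 (7.33), Tmigd1 (7.09), Fgfr3 (7.90), Dsc2 (11.11), Esrp1 (10.97), Ovol1 (9.67), Rab25 (11.82), Col17a1 (10.09), Krt19 (11.37) and Trp63 (10.48), and for Cd44 (11.68). It was lowest for Mgp (7.81), Dennd2a (5.66), Plekhh2 (6.41), Vcan (9.64), Zeb1 (8.10), Snai1 (7.81), S100a4 (7.74), Pdgfra (7.76), Dcn (10.63), Fn1 (11.69) and Vim (11.74). Its microRNA hairpins were the highest of the spindle mice, with 7.05 for Mir200a, 8.13 for Mir200b, 5.85 for Mir200c and 5.31 for Mir141.

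Other spindle mice that stood apart were mouse 1537 for hair follicle markers (7.83), mouse 1984 for Langerhans cell markers (6.53), mouse 1815 for Foxc2 (9.94) and mouse 2022 for Col1a1 (10.32). Among SCC mice, mouse 1949 was lowest for basal keratins and hemidesmosome genes (9.9988) and highest for melanocyte markers (6.06), Adamts14 (8.15) and Pcdh19 (8.57). Mouse 2022 was the highest SCC mouse for Krt7 (11.92), and mouse 1508 was the lowest for Mir205 (4.55).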

How the results depend on the processing

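The positions of the mixed tumours moved by less than the spread between them under every alternative run, with 0.970 to 1.21 for mouse 1616, 0.392 to 0.577 for mouse 1706 and 0.814 to 1.03 for mouse 1949. The count of 93 genes called against SCC did not hold in the same way, and the cause was not tested. It was 57 with no replicate block, 0 with mouse as a fixed block (which pairs tumours within mouse 1949 alone), 0 on individual arrays, 0 with genotype and 30 with batch as a covariate, 0 in batch 1 alone, 7 in WT mice alone (1 mixed tumour, assumed to vary like the other groups), 1875 without carcinomas titled RegCA and 775 with a filter on low values. Leaving out each mixed tumour in turn gave 0 to 454. Without the spindle array of mouse 1949 it was 1667, without its SCC arrays too 2319, and without the SCC of mouse 1508 it was 0. Every one of the 93 genes kept its sign in each setting where it was tracked and tested, among them the removal of each mixed tumour. These settings share most arrays with the fit that chose the genes, so that kept signs carry little weight. Of the 93, 90 were called without the mixed tumour of mouse 1706 and 83 with the filter. Against spindle carcinoma the count of 0 became 2 in WT mice, 0 to 3 without each mixed tumour and 1 without the spindle array of mouse 1949. Against the midpoint it became 6 in WT mice, 0 to 2 without each mixed tumour and 1 without the SCC and spindle arrays of mouse 1949. The 4527 genes between spindle carcinoma and SCC became 0 with the fixed block and 1419 in WT mice. Of 288 alternative values of the named genes that were called, all kept their sign, with the same limit, and 131 stayed past the threshold.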

Other observations

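Every one of the 25 carcinoma arrays was the highest for some genes and the lowest for others. The mixed tumours of mice 1616, 1706 and 1949 were highest for 863, 159 and 273 genes, and the other arrays for 239 to 2855 (median 628). They were lowest for 283, 406 and 207 genes, and the other arrays for 214 to 3566 (median 627). The genes named here were chosen after their values had been seen, and they are values with no test. That of mouse 1949 was the highest for most of the genes examined of osteoclasts, the bone-resorbing cells of the macrophage lineage. Dcstamp, which drives their fusion, stood at 9.01, against at most 8.10 in the 22 spindle and SCC arrays. The receptor Oscar stood at 9.34, against 3.85 in mouse 1616 and 4.22 in mouse 1706. Spindle and SCC arrays had a median of 4.06 for Oscar and reached 8.49. The proton pump subunit Atp6v0d2 was at 11.03, the protease Ctsk at 11.88, the phosphatase Acp5 at 12.003 and the transcription factor Nfatc1 at 9.50, each the highest of all carcinomas. Spindle and SCC arrays came close, reaching 10.515, 11.68, 11.67 and 8.96 in the same order. Of the osteoclast genes examined, Mmp9 at 12.21 ranked 3 of 25, below 12.27 in mouse 1706. Multinucleate giant cells of macrophage origin express several of these genes as well.

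The tumour of mouse 1706 was the highest for Prox1 (7.23, with at most 6.14 in spindle and SCC arrays) and Flt4 (9.06, with at most 8.42), both genes of lymphatic endothelium, while Lyve1 at 9.41 and Pdpn at 11.18 were within the other arrays. The tumour of mouse 1616 was the highest for the cytotoxic lymphocyte genes Gzma (7.42, with at most 5.89), Gzmb (9.81, with at most 8.70), Klrg1 (6.58) and Prf1 (8.00), but not for Nkg7 (9.04, with up to 9.39) or Gzmc (7.83, with up to 9.54). It was the lowest of all carcinomas for the contractile genes Acta2 (9.95), Myl9 (7.36) and Tagln (6.88) and for Ccn2 (8.47), a matricellular protein.

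The series holds 1 metastasis labelled mixed, from the lung of WT mouse 1508. It lay at a position of 1.12, with 0.97 over genes higher in spindle and 1.19 over genes lower in spindle.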
